A study of Rattus norvegicus with 12 samples.

Results

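Gene expression of ICR rat lenses with cortical opacity at 10 weeks of age was compared with that of clear ICR lenses at 4 weeks of age. The comparison used 6 of the 12 arrays of the study, 3 titled as 10-week lenses and 3 titled as 4-week lenses, all from male rats of strain ICR/Ihr. The ICR rat is an inbred line with hereditary cataract, and every ICR array comes from that line, so no ICR lens without the cataract background was hybridised at 10 weeks. The 3 ICR arrays of 8 weeks (cortical opacity) shared the fit, and 3 arrays of male Sprague Dawley (SD) lenses without cataracts, 1 each at 4, 8 and 10 weeks, gave the change with age in outbred rats. Age and opacity move together in ICR and cannot be told apart within it. Whether the 3 arrays of a group stand for separate animals is not in the labels, and the p-values below rest on the spread between arrays alone, which may be technical. Genes counted as tested if they were named by a probe set with a single gene symbol and reached a log2 signal of 5 in at least 1 of the 9 ICR arrays, which left 4546 of 18166 genes.

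The lens is an avascular tissue with a single layer of epithelial cells at its front and a mass of fibre cells behind it. Epithelial cells at the equator stop dividing, elongate into fibres, fill with crystallins and then degrade their nuclei, mitochondria and endoplasmic reticulum, so that most of the cortex cannot replace its proteins. Transparency depends on crystallin solubility, on ion pumps and channels that hold cell volume steady, and on sterol-rich fibre membranes. In whole lenses, fewer cells of a type and less RNA per cell cannot be told apart.

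The arrays differed most by the number that follows the age in their titles, here called the replicate number. The first principal component of the 9 ICR arrays held 67.6% of the variance and set the replicate 1 arrays of all 3 ages apart from the others, while the second held 14.5% and ordered the arrays by age. Arrays of the same age correlated at 0.848 to 0.974 over the tested genes. The ICR arrays had 3115 to 3934 genes at a signal of 5 or more, with the highest number at each age in replicate 1, and the SD arrays had 3023 to 3339. The age contrast was fitted with the replicate number as a block, which was set for this comparison, and each change below is a difference within replicate numbers. The labels do not say whether arrays of the same number share an animal, litter, batch or day.

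**Figure D1:**
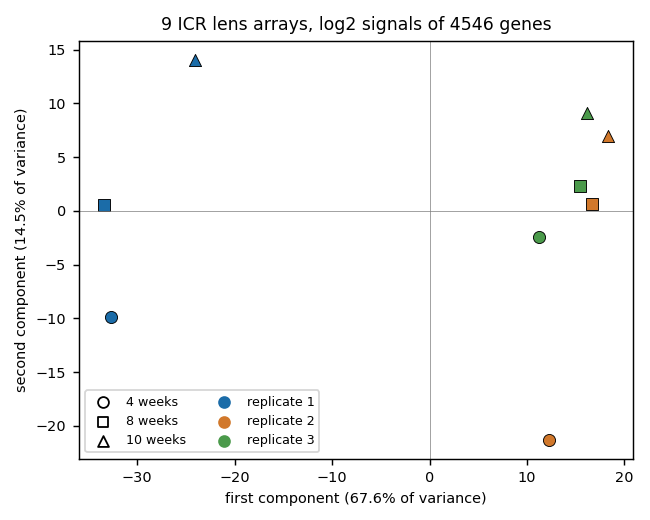
Scores of the 9 ICR arrays on the first and second principal components of the log2 signals of 4546 genes. Marker shape gives the age and colour the replicate number, and the replicate 1 arrays lie at -33.4 to -24.0 on the first component, all other arrays at 11.3 to 18.3.

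From 4 to 10 weeks, 72 genes (1.58% of those tested) rose and 333 (7.33%) fell in limma at an adjusted p under 0.05. The calls ran from 0.39 to 2.12 on the log2 scale among rises and from 0.39 to 2.67 among falls, and 10 rises and 55 falls reached 1, a doubling or more. All 405 called genes (8.91% of those tested) moved the same way within each of the 3 replicate numbers. The fit with the block favours such genes, so this is no separate support for the calls. All 10-week arrays lay above all 4-week arrays for 46 of the 72 rises (4.20% of all tested genes did so) and below them for 228 of the 333 falls (13.0% of all). The median change of all tested genes was -0.10, so part of the excess of falls lies in a shift of the whole distribution. With quantile normalization, which moved that median to -0.01, 140 genes rose and 222 fell, and with cyclic loess 136 rose and 219 fell, so that 38.7% and 38.3% of the calls were rises in place of 17.8%. The 72 rises were all called again with both, while 222 and 219 of the 333 falls were.

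The block and single arrays carried many of these calls. Without the block, 0 genes rose and 7 fell in limma (102 and 399 at an unadjusted p under 0.05), and 3 of the 7, Cryge, Clic5 and Osbpl11, are not in the study's own tables of changed ICR genes. With the replicate number as a random effect in limma, 44 rose and 210 fell. Leaving out an array gave 12 rises and 69 falls without 4-week replicate 1, 28 and 128 without 4-week replicate 2, 15 and 73 without 10-week replicate 1, 20 and 102 without 10-week replicate 2, and 47 and 242 without 10-week replicate 3. A total of 9 rises and 61 falls were called in each of the 9 fits that left out a single array. Signals below 5 count here as not above background, and 12 of the rises and 78 of the falls reached 5 in fewer than 3 of the 6 arrays compared, so their changes lie largely between values under the limit. Of the called genes named in the text 24 are of this kind, namely Asns, Atg5, Ddit3, Dnajb4, Etv5, Exosc5, Gstm2, Gstp1, Kif5a, Loxl1, Marchf2, Meis1, Mrpl32, Mrps21l, Mtx2, Ndufb6, Ntn4, Sema3c, Slc7a11, Sorbs2, Sord, Tet3, Timp1 and Usp2. Other called genes named in the text reached 5 in all 3 arrays of one age and in none of the other, so only a least fold is known. Set against the limit, the falls were at least 1.83-fold for Myo18a, 1.48 for Uspl1, 1.44 for Cep76, 1.41 for Whamm, 1.34 for Idh1, 1.26 for Ephb3 and 1.1 for Hdac4. The rises were at least 1.31-fold for Mid2 and 1.29-fold for Scd. None of the 27 rises outside the study's tables was among the 9 rises called in each of the 9 fits. Of the 279 falls outside them, 32 were among the 61 falls. The study's tables took in rises at a lower fold cutoff than falls, so larger falls than rises were left outside them. These counts therefore do not compare rises with falls.

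The largest fall outside the study's tables was that of Cryge, which encodes a gamma-crystallin, a structural protein made by young fibre cells. Its log2 signals were 11.46, 11.64 and 11.28 at 4 weeks and 9.63, 10.01 and 9.81 at 10 weeks, a change of -1.64 (SE 0.15, adjusted p = 0.000311) or 3.13-fold. Every 10-week array was lower than every 4-week array, and the 8-week mean of 10.96 lay between. Clic5, a chloride intracellular channel protein, was at 10.51, 10.82 and 10.62 and then at 9.54, 9.61 and 9.56 (change -1.08, SE 0.11, adjusted p = 0.000659). Osbpl11, an oxysterol-binding protein that carries lipids between membranes, went from 7.02, 6.70 and 6.72 to 5.87, 5.63 and 5.80 (change -1.05, SE 0.12, adjusted p = 0.00129). For both genes the spread within an age was far smaller than the gap between ages. Gamma-crystallin genes are close copies of each other, and probes of Cryge may share signal with Crygf.

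The other large falls covered several functions. Kinase and signalling genes among them were Stk40, a serine/threonine kinase family member (-1.01), Oxsr1, the kinase that switches cation-chloride cotransporters when cell volume changes (-0.99), and Sipa1l1, a GTPase-activating protein for Rap (-0.93). Oxsr1 signals were 6.43, 6.56 and 6.14 at 4 weeks and 5.10, 5.76 and 5.28 at 10 weeks, with no overlap. Nuclear genes were Satb1, a chromatin organizer (-0.97), Meis1, a homeobox factor of eye development (-0.94), and Uspl1, a SUMO protease (-0.96). Meis1 was at 3.88, 5.12 and 3.87 and then at 3.31, 3.23 and 3.50, so that only 1 array reached the detection limit of 5 among these 6, and without it (4-week replicate 2) the change was -0.53 (adjusted p = 0.0792). Cep76, a centrosomal protein, fell by 0.94, Ndel1, a regulator of dynein, by 0.91, Sh3bgr by 0.93, and Pgap2, which matures glycosylphosphatidylinositol (GPI) anchors, by 0.91. Of the 15 largest falls outside the study's tables, 14 had groups that did not overlap and 13 were called in each of the 9 fits that left out an array, Satb1 and Meis1 being the exceptions. They were picked for their size on these same arrays, so neither count is separate support. For comparison, 13.0% of all tested genes had every 10-week array below every 4-week array. Of all 333 falls, 228 did so and 61 were called in each of the 9 fits.

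Rises outside the study's tables were from 0.39 to 0.71, while those in the tables reached 2.12. As the tables took in rises at a lower fold cutoff than falls, mostly small rises were left outside. Their size is thus not set against that of the falls. Ddit3, the stress-induced transcription factor also known as CHOP, had signals of 4.97, 3.41 and 4.09 at 4 weeks and 5.57, 4.19 and 4.55 at 10 weeks (change 0.61, SE 0.12, adjusted p = 0.0134). The groups overlapped because replicate 1 was higher at both ages, and the rise is seen within each replicate number, but only 10-week replicate 1 reached the detection limit of 5. Bhlhe40, a transcriptional repressor of the circadian clock that also responds to low oxygen, was at 5.28, 5.78 and 5.24 and then at 5.96, 6.03 and 5.96 (change 0.55, SE 0.13, adjusted p = 0.0358), with no overlap. Ncl, the abundant nucleolar protein nucleolin, was at 8.74, 8.74 and 9.17 and then at 9.29, 9.59 and 9.48 (change 0.57, SE 0.13, adjusted p = 0.0301). Bhlhe40 and Ncl are thus among the 7 of the 15 largest rises outside the tables whose groups were apart. Among all tested genes, 4.20% had every 10-week array above every 4-week array.

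The other 12 of the 15 largest rises outside the tables were from 0.49 to 0.71. Pigp, a subunit of the enzyme that starts GPI anchors, rose by 0.67, in the opposite direction to Pgap2, which acts late on the same anchor. Use1, a membrane fusion protein (SNARE) of retrograde transport to the endoplasmic reticulum, rose by 0.60, Hid1, a Golgi sorting protein, by 0.56, and Marchf2, a membrane-bound ubiquitin ligase, by 0.56. Itm2b, an integral membrane precursor protein, rose by 0.52, Plp2 by 0.55, Clstn2, a calsyntenin, by 0.56, and S100a10, the partner of annexin A2, by 0.52. Rspo1, a secreted enhancer of Wnt signalling, rose by 0.52, Adissp by 0.56, Ivns1abp by 0.49 and Fancd2osl1 by 0.71 (0.47, adjusted p = 0.136, without 10-week replicate 2). Use1 and Pigp showed how far replicate 1 stood apart: Use1 was at 9.20, 7.28 and 7.76 at 4 weeks and 9.88, 7.98 and 8.16 at 10 weeks, and its adjusted p of 0.0125 became 0.924 without the block.

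**Figure D2:**
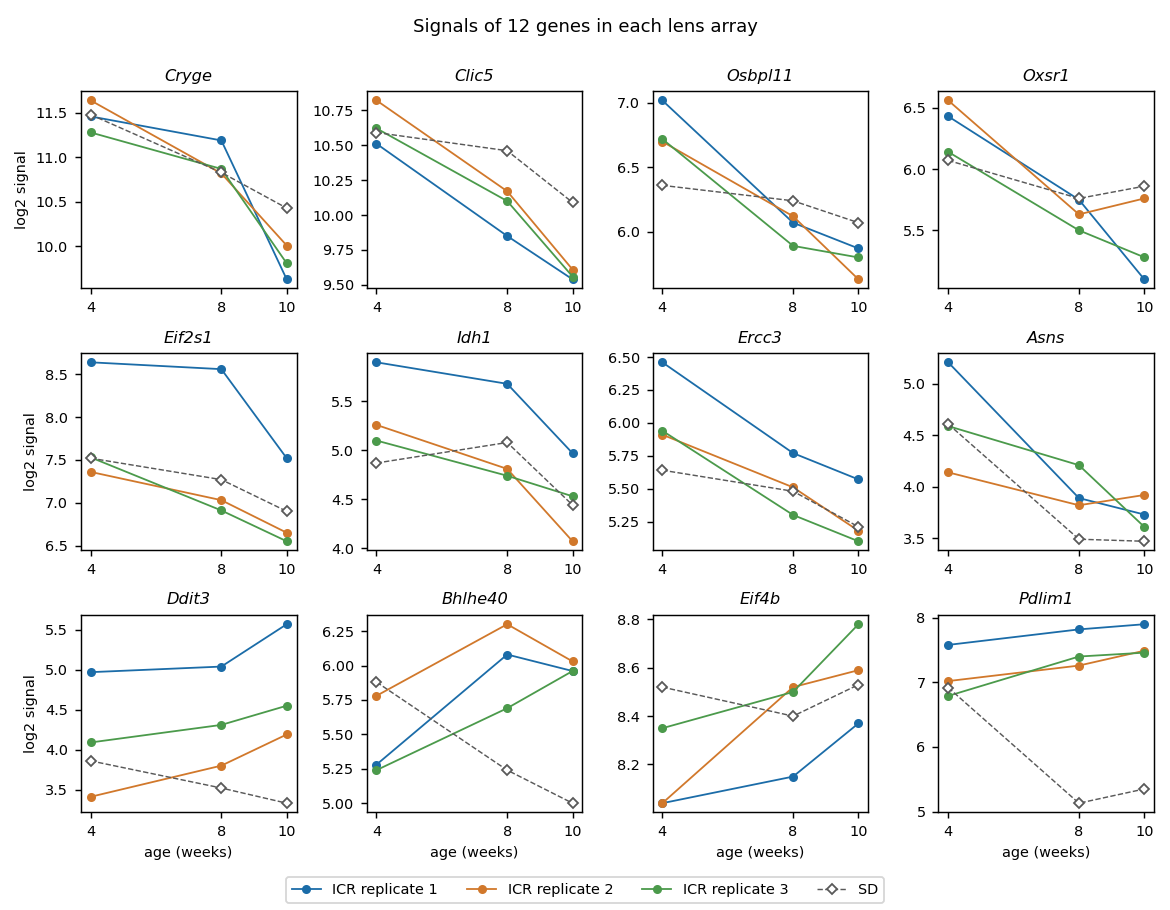
Log2 signal against age in weeks for 12 genes, with a line for each ICR replicate number and open diamonds for the single SD array of each age. Cryge, Clic5, Osbpl11 and Oxsr1 fall in all 3 lines without overlap, while Ddit3, Eif4b and Pdlim1 rise by 0.44 to 0.61 and replicate 1 of Ddit3 lies above the other lines.

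Genes were then read by function in 71 lists, described by counts and medians only. A list with no special behaviour would have about 1.58% of its tested genes higher and 7.33% lower, and a median near -0.10. Of the lists, 21 had a gene that rose, 53 a gene that fell and 12 neither. Quantile normalization moved the count of falls by more than 1.5 times in 18 lists. Falls went from 5 to 0 among proteasome subunits, from 6 to 3 among ubiquitin ligase subunits, from 5 to 3 in complex I, from 4 to 1 in cholesterol synthesis and from 3 to 0 in the fibroblast growth factor (FGF) and ERK pathway, and the other 13 lists had 1 or 2 falls and lost 1. It gave 1 or 2 rises in 12 lists that had 0 in limma with the block.

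Translation initiation changed in named factors, while the ribosome itself showed few calls. Of 34 tested initiation factors, 6 fell and 1 rose (median -0.12). Eif2s1 and Eif2s2, the alpha and beta subunits of the factor eIF2 that brings the first transfer RNA to the ribosome, fell by 0.94 (SE 0.15, adjusted p = 0.00644) and 0.68 (SE 0.11, adjusted p = 0.00584). Eif2s2 was at 8.20, 7.75 and 7.70 at 4 weeks and 7.66, 7.03 and 6.93 at 10 weeks, and both subunits were called in each of the 9 fits that left out an array. Eif4e, which binds the cap of messenger RNA and is in the study's tables, fell by 1.09, and Eif4ebp2, which holds Eif4e inactive, by 0.63. The rise was Eif4b, a helper of the eIF4A helicase, at 8.04, 8.04 and 8.35 and then 8.37, 8.59 and 8.78 (change 0.44, SE 0.11, adjusted p = 0.0416). Of 46 cytosolic ribosomal proteins 1 fell, Fau (-0.43), of 39 mitochondrial ones 2 fell, Mrpl32 (-0.85) and Mrps21l (-0.71), and of 9 elongation and termination factors none was called (the smallest p was that of Gspt1, change -0.25, adjusted p = 0.222). Of 20 aminoacyl-tRNA synthetases 1 fell, Rars1 (-0.57), and of 10 genes of ribosome assembly Ncl alone rose.

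Protein folding genes were called in both directions. Of 37 heat shock proteins and co-chaperones, Dnajb4 (-0.69), Dnajb1 (-0.52) and Hspd1 (-0.57) fell and Hspb1 rose (0.46, SE 0.12, adjusted p = 0.0424). Hspd1, the mitochondrial chaperonin, was at 6.69, 6.68 and 6.57 at 4 weeks and 6.04, 5.93 and 6.27 at 10 weeks. Hspb1, the small heat shock protein known as HSP27 in human, was at 9.04, 7.88 and 8.20 and then at 9.52, 8.57 and 8.42, with overlap between ages. Of 11 subunits of the cytosolic chaperonin and prefoldin, Cct3 fell (-0.51). Of 20 genes of endoplasmic reticulum folding and the unfolded protein response, Ddit3 alone was called, and Atf6, a sensor of that response, had a change of -0.35 (adjusted p = 0.0659) and the calcium-binding chaperone Calr one of -0.35 (adjusted p = 0.134).

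The promoters of Dnajb1, Hspd1 and Hspb1 are shown because they share a feature across opposite directions of change. Dnajb4, the fourth called gene of this list, was not matched in the promoter table. Sequences are those of RefSeq for build GRCr8, from 250 bases before to 50 after the start of the gene, in lower case with each paired heat shock unit, GAANNTTC or TTCNNGAA, in capitals. Both motifs read the same on either strand and may overlap each other by 3 bases. They were found in 15.4% of all 27457 rat promoters in the table, and in 11 of the 28 tested heat shock genes that matched it by symbol. The Hspd1 stretch overlaps that of Hspe1, which was not called, on the plus strand at chr9:64084077-64084376. The units marked for Hspd1 lie in the shared part, so the same bases count for both genes among the 11. A match of letters is a description and not a shown binding site.
Dnajb1, lower at 10 weeks, chr19:41431092-41431391, minus strand: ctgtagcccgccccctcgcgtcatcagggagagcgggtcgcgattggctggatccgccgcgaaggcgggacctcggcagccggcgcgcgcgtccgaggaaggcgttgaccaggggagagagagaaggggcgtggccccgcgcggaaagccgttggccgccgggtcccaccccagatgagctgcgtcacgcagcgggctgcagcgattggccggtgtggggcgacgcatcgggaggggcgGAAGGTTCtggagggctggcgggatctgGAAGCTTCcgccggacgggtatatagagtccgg
Hspd1, lower at 10 weeks, chr9:64083988-64084287, minus strand: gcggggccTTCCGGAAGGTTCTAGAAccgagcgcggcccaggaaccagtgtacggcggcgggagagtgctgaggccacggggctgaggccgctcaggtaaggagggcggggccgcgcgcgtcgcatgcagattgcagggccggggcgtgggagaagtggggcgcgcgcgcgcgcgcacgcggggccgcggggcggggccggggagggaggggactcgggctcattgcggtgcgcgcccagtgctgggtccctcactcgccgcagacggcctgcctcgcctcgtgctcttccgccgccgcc
Hspb1, higher at 10 weeks, chr12:26432252-26432551, minus strand: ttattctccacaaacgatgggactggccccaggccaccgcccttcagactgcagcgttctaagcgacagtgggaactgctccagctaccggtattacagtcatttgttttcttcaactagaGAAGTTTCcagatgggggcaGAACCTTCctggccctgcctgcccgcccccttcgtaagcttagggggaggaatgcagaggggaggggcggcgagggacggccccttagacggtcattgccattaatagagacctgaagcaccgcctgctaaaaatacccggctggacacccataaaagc

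The called genes of the protein breakdown lists fell, whereas the ubiquitin ligases Marchf2 and Mid2, which are in none of them, rose by 0.56 and 0.75 (Mid2 is in the study's tables). Of 35 proteasome subunits 5 fell, Psme4, Psmb7, Psmd13, Psmc6 and Psmb6, by 0.45 to 0.62 (median of the list -0.18). Psmb7, a catalytic subunit, was at 8.25, 6.78 and 6.79 at 4 weeks and 7.87, 6.16 and 6.38 at 10 weeks, so that the groups overlapped and the fall is within replicate numbers. Of 77 ubiquitin ligase subunits 6 fell, led by Rnf180 (-2.10) and Fbxo7 (-1.13), both in the study's tables, Klhl25 (-0.90) and Cul5 (-0.52). Of 22 activating and conjugating enzymes Ube2o (-1.30, in the study's tables) and Ube2r2 (-0.46) fell, and of 31 deubiquitinating enzymes Otud4 (-0.57) and Usp2 (-0.56) did. Of 23 autophagy genes 3 fell, Atg5, part of the conjugate that builds the autophagosome membrane (-0.74, adjusted p = 0.0178), Atg9a, which supplies that membrane (-0.61, adjusted p = 0.0148), and the cargo receptor Optn (-0.57, adjusted p = 0.0171). Atg9a was at 6.92, 6.64 and 6.57 and then at 6.35, 5.97 and 5.98. The 10-week arrays lay below the 4-week arrays for all 3 autophagy genes, as for 13.0% of all tested genes. Atg5 reached the detection limit of 5 in only 2 of the 6 arrays. Of 31 lysosomal genes Atp6v1e1, a subunit of the proton pump, fell (-0.68), and the protease Ctsd had a change of -0.37 (adjusted p = 0.0602).

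Among genes of energy metabolism, falls were found in complex I and the ATP synthase. Of 36 complex I subunits 5 fell, Ndufa11 (-0.66), Ndufc2 (-0.55), Ndufv2 (-0.61), Ndufb6 (-0.77) and Ndufb7 (-0.48), with a list median of -0.20. Ndufb6 was at -0.48 without 10-week replicate 1 (adjusted p = 0.111). Of 15 ATP synthase genes Atp5me (-0.49) and Atp5pf (-0.51) fell, and of 24 nuclear-encoded genes of complexes II to IV 0 were called in limma with the block or without it, the nearest being Cox7a2l (change 0.36, adjusted p = 0.0609), which was called with quantile normalization. COX2, the complex IV subunit encoded in mitochondrial DNA, is in none of the lists and was looked up after its call was seen. It fell from 10.77, 10.01 and 9.81 to 10.36, 9.16 and 9.27 (change -0.60, SE 0.13, adjusted p = 0.0197), and its fellow mitochondrial subunits COX1 (-0.29, adjusted p = 0.125) and COX3 (-0.42, adjusted p = 0.113) were not called. Ndufa11 was at 7.92, 6.35 and 6.14 at 4 weeks and 7.43, 5.58 and 5.43 at 10 weeks, again with replicate 1 apart. Of 18 mitochondrial import genes Timm8b (-0.63) and Mtx2 (-0.65) fell. Idh1, the cytosolic isocitrate dehydrogenase that makes NADPH, was at 5.90, 5.26 and 5.10 and then at 4.97, 4.07 and 4.53 (change -0.90, SE 0.14, adjusted p = 0.00584). All 10-week values of Idh1 were below the detection limit of 5, and set against that limit the 4-week mean was at least 1.34-fold higher. Pdha1, a subunit of pyruvate dehydrogenase, rose by 0.44 (SE 0.10, adjusted p = 0.0318), from 8.07, 7.75 and 7.78 to 8.63, 8.13 and 8.15. Of 12 glycolysis genes the glucose transporter Slc2a1 (-0.57) and Pgk1 (-0.45) fell, and of 4 genes of the pentose phosphate and polyol pathways Sord, which turns sorbitol into fructose, rose (0.48, adjusted p = 0.0402), while Akr1b1, the aldose reductase that makes sorbitol, had a change of -0.02 (adjusted p = 0.913).

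Lipid genes are given by pathway, and no difference between the pathways was tested. Of 19 genes of fatty acid and triglyceride synthesis 4 rose, Thrsp (1.82), Srebf1 (1.26), Scd (0.77) and Pnpla3 (0.63), all in the study's tables, which were chosen on these arrays and give no independent evidence of the direction. Lpin1, the phosphatidate phosphatase on the way to triglycerides, fell, from 8.92, 9.19 and 8.85 to 8.24, 8.17 and 8.25 (change -0.77, SE 0.12, adjusted p = 0.00584). That list had a median of 0.14 in ICR and of -0.33 in SD. Of 10 cholesterol synthesis genes 4 fell, namely Fdft1, the squalene synthase (-0.57, adjusted p = 0.0164), Sc5d (-0.50, adjusted p = 0.0276) and Dhcr7 (-0.55, adjusted p = 0.038), enzymes of the last steps, and Idi1 (-1.0, adjusted p = 0.0443, and -0.62, adjusted p = 0.159, without 10-week replicate 2), which is in the study's tables. The median of the list was -0.39. All 4 had groups that did not overlap, as did 228 of the 333 called falls, and 13.0% of all tested genes lay apart in that direction. Fdft1 signals were 6.96, 6.34 and 6.51 at 4 weeks and 6.25, 5.94 and 5.92 at 10 weeks. Of the 9 fits that left out an array, Fdft1 was called in 6, Dhcr7 in 4, Sc5d in 3 and Idi1 in 1. Of 19 genes of fatty acid oxidation and peroxisomes Cpt2 (-1.29, in the study's tables) and Cpt1a (-0.78), which pass fatty acids into mitochondria, fell, though Cpt1a was called in only 2 of the 9 fits that left out an array and was at -0.49 (adjusted p = 0.171) without 10-week replicate 1. Of 19 sphingolipid and phospholipid enzymes 0 were called in limma with the block or without it, the nearest being Ugcg (change -0.38, adjusted p = 0.067).

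Genes of amino acid supply were called in both directions. Of 11 amino acid transporters 3 fell, Slc38a3, a glutamine carrier (-0.75, adjusted p = 0.00952), Slc7a5, the large neutral amino acid carrier (-0.66, adjusted p = 0.0117), and Slc7a11, the cystine carrier (-1.10, adjusted p = 0.0155, in the study's tables). Slc7a5 was at 8.62, 8.95 and 8.75 at 4 weeks and 7.77, 8.29 and 8.28 at 10 weeks. Of 12 enzymes of serine, one-carbon and arginine metabolism Mthfd2, a mitochondrial folate enzyme (-0.60, adjusted p = 0.014), and Asns, the asparagine synthetase (-0.89, adjusted p = 0.0374), fell, while Ass1, which makes argininosuccinate, rose by 2.12 and is in the study's tables. Asns was at 5.21, 4.14 and 4.59 and then at 3.73, 3.92 and 3.61, below the detection limit in all but 1 array, and without that array (4-week replicate 1) its change was -0.58 (adjusted p = 0.143). Of 26 glutathione and thioredoxin genes the glutathione transferases Gstp1 (-0.53) and Gstm2 (-0.52) fell, and the peroxidase Gpx1 had a change of -0.53 (adjusted p = 0.0677). Of 20 genes of iron, zinc and copper handling Hmox1, the heme oxygenase (-1.90, in the study's tables), fell.

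Falls among nuclear genes were few per list, and splicing had no call. Of 14 DNA repair genes 3 fell (median -0.35 in ICR and -0.38 in SD). Ercc3, the helicase of the repair and transcription factor TFIIH, was at 6.46, 5.91 and 5.94 at 4 weeks and 5.57, 5.18 and 5.10 at 10 weeks (change -0.82, SE 0.11, adjusted p = 0.00271). Parp1, which marks DNA breaks with poly-ADP-ribose, was at 5.95, 5.68 and 5.61 and then at 4.60, 5.04 and 5.14 (change -0.82, SE 0.16, adjusted p = 0.0141), and Trex1, a DNA exonuclease of the study's tables, fell by 1.30. Of 28 genes of messenger RNA decay and the microRNA machinery 4 fell, Igf2bp2 (-1.42) and Tnrc6b (-1.05), both in the study's tables, Tnrc6a (-0.68) and Exosc5, a subunit of the RNA exosome (-0.51). Of 37 genes on the list of histone and DNA modifying enzymes, the histone demethylase Kdm3a (-0.75), the deacetylase Hdac4 (-0.63) and the DNA demethylase Tet3 (-0.72) fell. The list also holds the methyltransferases Setd3 (0.53, in the study's tables) and Setd7 (0.48), which rose. Kdm3a was at 6.36, 6.30 and 5.98 and then at 5.55, 5.53 and 5.31, without overlap. Of 14 nuclear pore and envelope genes Nxf1 (-0.58) and Nup153 (-0.45) fell, and of 16 histone genes H2ac25 (-0.54) did. The cell cycle list had 8 tested genes of 45 on the array, of which Ccnd2, cyclin D2, fell, from 6.23, 6.29 and 6.47 to 5.57, 5.60 and 5.64 (change -0.73, SE 0.13, adjusted p = 0.0108). Of 63 splicing factors 0 were called in limma, the nearest being Srrm2 (change -0.39, adjusted p = 0.0635).

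Genes of cell shape and contact fell in part. Of 39 myosins and actin regulators 6 fell, among them Myo18a (-1.10), Whamm (-1.04) and Spire1 (-1.01) of the study's tables and Tmod2, which caps the slow end of actin filaments (-0.90, SE 0.12, adjusted p = 0.00271). Tmod2 was at 7.21, 7.35 and 6.84 at 4 weeks and 6.31, 6.27 and 6.11 at 10 weeks. Of 27 kinesin and dynein genes Ndel1 (-0.91) and Dynll1l1 (-0.55) fell and Kif5a (1.39), Kif26a (0.53) and Dynll2 (0.46) rose, the first 2 of these in the study's tables. Of 15 genes of the spectrin membrane skeleton, which gives fibre cells their shape, Sntb1 (-0.75) and Epb41 (-0.59) fell. Of 24 integrin and focal adhesion genes 4 fell, Limd1 (-1.55) and Sorbs2 (-1.59) of the study's tables, Pxn, paxillin (-0.52), and Sorbs3 (-0.55), and Lims1 rose (0.74, in the study's tables). Of 15 cadherins, catenins and tight junction genes the adhesion protein Nectin3 fell (-0.78). Of 25 collagen and basement membrane genes Loxl1 (-0.97) fell and Col1a2 (0.76) rose, both in the study's tables, and of 9 metalloproteinases and inhibitors Timp1 fell (-0.70, adjusted p = 0.0399), at 6.42, 3.79 and 4.11 and then 5.34, 3.35 and 3.54. Only replicate 1 of Timp1 was above the detection limit at either age, and without 10-week replicate 1 the change was -0.45 (adjusted p = 0.146).

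Signalling genes gave few calls per pathway. Of 24 genes of the FGF and ERK pathway, the main signal for fibre differentiation, the decoy receptor Fgfrl1 (-0.47), the adaptor Shc1 (-0.58) and the target gene Etv5 (-0.61) fell. Of 18 genes of the transforming growth factor beta and bone morphogenetic protein pathway the receptor Acvr2a (-0.73, SE 0.11, adjusted p = 0.00484) and the ligand Tgfb2 (-0.71, adjusted p = 0.0176) fell, and the ligand Gdf15 (1.03) and the antagonist Chrdl1 (0.78), both in the study's tables, rose. Acvr2a was at 6.81, 7.01 and 6.85 at 4 weeks and 6.04, 6.32 and 6.13 at 10 weeks. Of 4 tested ephrins and receptors Ephb3 (-0.67) and Efnb2 (-0.49) fell, and the receptor Epha2, with a change of -0.23 (adjusted p = 0.287), was not called. Of 28 genes of insulin, insulin-like growth factor and mTOR signalling Akt1 (-0.49), Igf2r (-0.67) and Eif4ebp2 fell, while Sesn3, a sestrin that restrains mTOR (0.39, adjusted p = 0.0432), and Pik3r1 (0.55, in the study's tables) rose. Of 21 Wnt pathway genes Rspo1 alone rose and of 9 axon guidance genes Ntn4 (0.81, in the study's tables) rose and Sema3c (-0.85) fell.

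Transport genes were called in both directions, and the called crystallins fell. Of 21 genes of chloride and bicarbonate transport and cell volume 4 fell, Clic5, Oxsr1, the carbonic anhydrase Car2 (-0.54) and the anion exchanger Slc26a4 (-2.50), and the water channel Aqp5 rose (1.0), the last 2 in the study's tables. Of 8 sodium pump and channel genes Kcne2 (-0.50) fell, as did Fxyd6 of the study's tables (-1.39). Kcne2, an accessory potassium channel subunit, was at 7.38, 7.28 and 7.21 at 4 weeks and 6.88, 6.82 and 6.68 at 10 weeks. Of 26 genes of calcium handling the calcium-binding protein Pvalb fell (-0.73), at 7.46, 5.92 and 5.57 and then 6.48, 5.16 and 5.11, and S100a10 and Rcan2 (1.08, in the study's tables) rose. Of 4 connexins and pannexins Gje1 fell (-1.05, in the study's tables), and the fibre connexin Gja3 had a change of -0.36 (adjusted p = 0.118). Of 13 genes on the crystallin list Crygf (-2.21), Cryge (-1.64) and Crygn (-1.56) fell, while the median of the list was -0.10. The list also holds Lgsn, lengsin, a lens fibre marker that is not a crystallin. Lgsn rose (0.92, and 0.55 with an adjusted p of 0.0832 without 4-week replicate 2).

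Several lists had no call or a single one. In limma with the block, 0 genes were called among 18 tubulins and microtubule-binding proteins, 17 Notch and Hippo genes, 16 nuclear receptors, 12 proteoglycan genes, 17 genes of inflammation, interferon and antigen presentation, 7 genes of the primary cilium, 6 genes of apoptosis and 17 microRNA hairpins, and without the block 0 were called as well. With quantile normalization Cd44 of the proteoglycan genes and the hairpin Mir138-2 rose. The smallest p among inflammation genes was that of Cxcl1 (change -0.64, adjusted p = 0.122), among apoptosis genes that of Tnfrsf10b (0.46, adjusted p = 0.0812) and among microRNA hairpins that of Mir325 (-0.80, adjusted p = 0.0542). A p that misses the threshold does not show that a gene kept its level. Of 134 genes on the inflammation list only those 17 reached a signal of 5, and of 35 apoptosis genes 6 did.

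**Figure D3:**
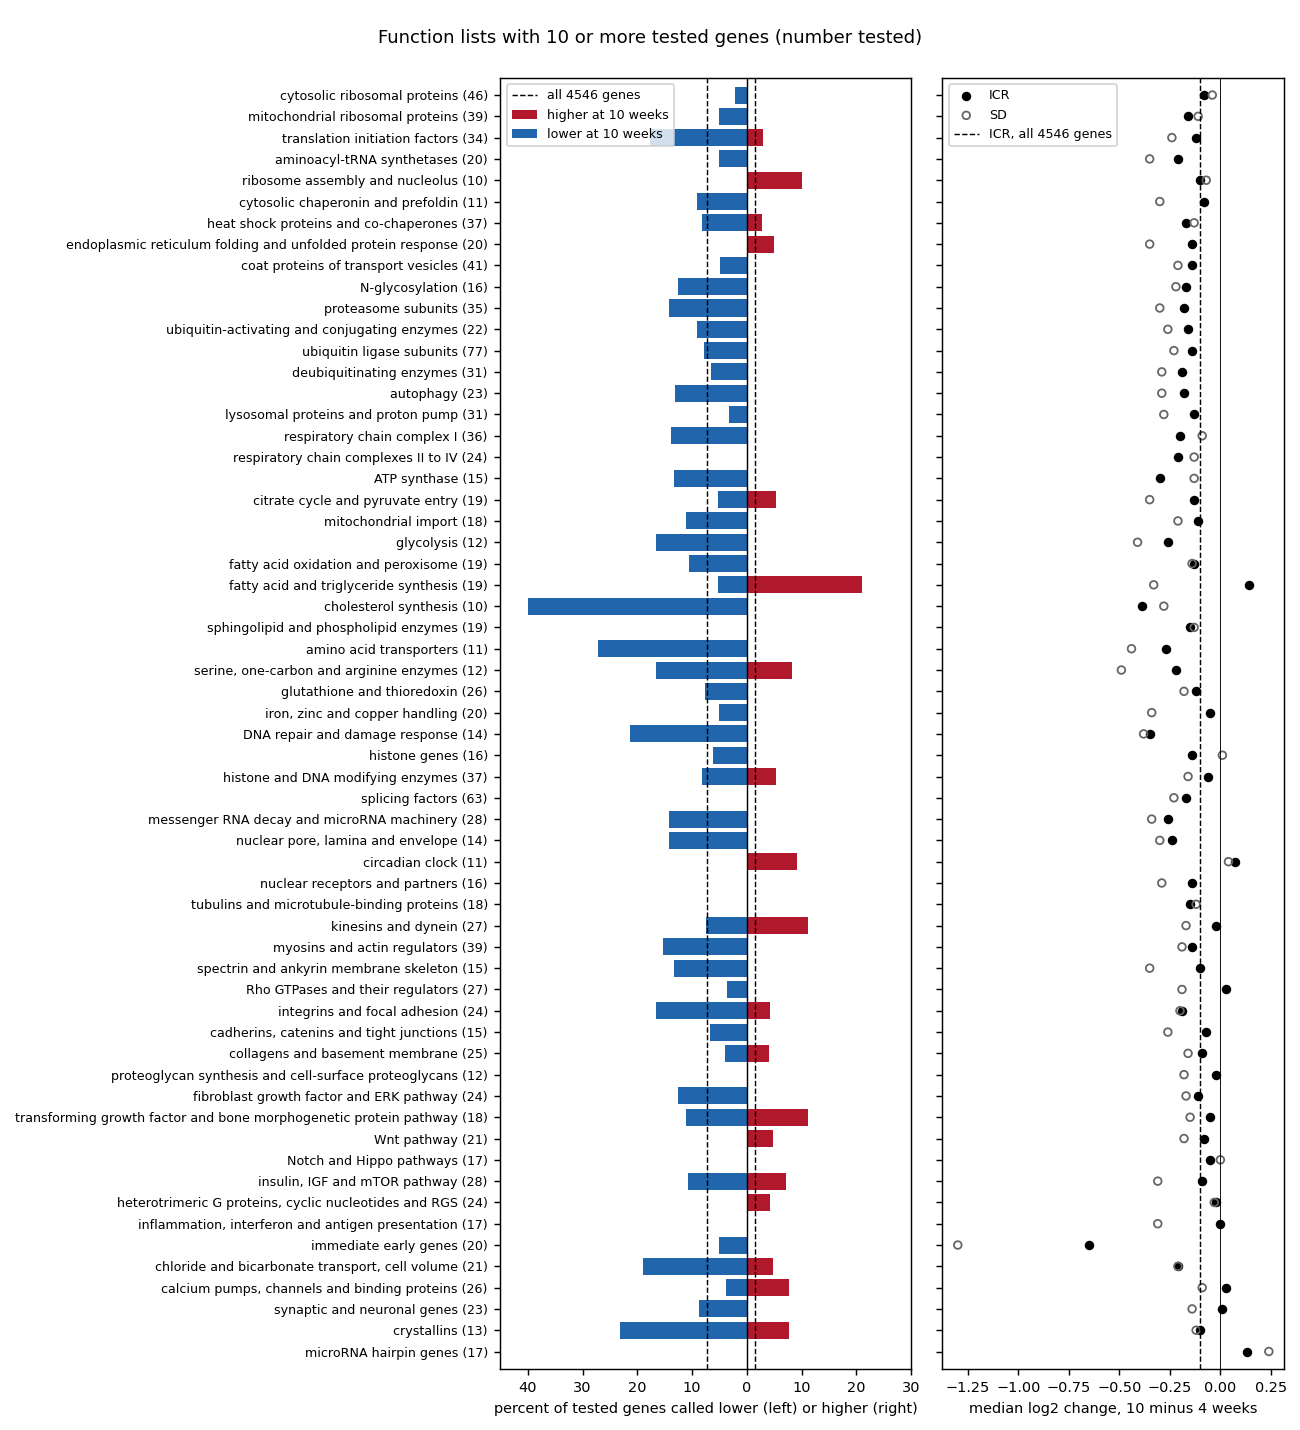
The left panel gives, for each function list with 10 or more tested genes, the percent of its genes called lower (to the left) or higher (to the right) at 10 weeks, with dashed lines at 7.33% and 1.58% for all 4546 genes. The right panel gives the median log2 change in ICR (filled) and in SD (open), with a dashed line at the ICR median of all genes, -0.10, and cholesterol synthesis has the largest share of falls with 4 of 10.

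Markers of the lens and of neighbouring tissue were read beside these results. All 9 lens epithelium markers on the array were tested and 2 fell, and their summed signal, as log2, was 9.97 to 10.08 at 4 weeks and 9.74 to 9.76 at 10 weeks, without overlap (10.17 and 9.70 in SD). All 11 lens fibre markers were tested, with 1 rise and 1 fall, and their summed signal was 15.03 to 15.14 and 14.98 to 15.15. Fibre markers such as Cryba1 (13.06 ± 0.03 at 4 weeks and 12.96 ± 0.08 at 10 weeks, SD, n = 3), Mip (12.45 ± 0.27 and 12.35 ± 0.16) and Crygc (12.50 ± 0.08 and 12.20 ± 0.05), and epithelial markers such as Slc2a1 (8.56 ± 0.16 and 7.99 ± 0.21), Cdh1 (6.89 ± 0.11 and 7.04 ± 0.41) and Gja1 (7.08 ± 0.43 and 6.50 ± 0.20), place the tissue as lens.

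Markers of the ciliary body and zonule moved with the comparison. Of 15 such markers 14 were tested, 9 fell and none rose (median -1.47), and Tyrp1, a defining pigment marker, stayed below 5. All 14 tested markers are in the study's tables, which hold 159 of the 4546 tested genes and were chosen on these arrays. The direction of these markers is thus no independent evidence. Their summed signal was 8.79 to 10.55 in the 4-week arrays, highest in replicate 2, and 7.87 to 8.43 in the 10-week arrays, and in SD it was 9.34 at 4 and 8.33 at 10 weeks. Fbn1, the fibrillin of zonular fibres, was at 6.60 ± 0.93 and 4.38 ± 0.81, Ogn at 6.91 ± 0.90 and 5.26 ± 0.68, and Optc at 6.81 ± 0.99 and 5.16 ± 0.79. Without 4-week replicate 2 the change of Fbn1 went from -2.22 to -1.46 (adjusted p = 0.0819) and that of Ogn from -1.65 to -0.87 (adjusted p = 0.0332). Slc26a4, counted above with chloride transport, is one of these markers. The part of this tissue in the falls reported above was not tested. Immediate early genes, whose transcripts can rise within minutes of a stimulus, had a median change of -0.65 in ICR and -1.30 in SD over 20 tested genes. The ICR value rests on replicate 2, since the medians within replicate numbers 1, 2 and 3 were -0.16, -1.49 and -0.06. Their summed signal was 9.25 to 11.66 at 4 weeks and 9.32 to 10.50 at 10 weeks, and 1 of them, Ppp1r15a, was called (-1.17, adjusted p = 0.00849). Its product reverses the phosphorylation of eIF2, whose subunits are given above, and the part of handling in this was not tested. All markers on the array of photoreceptors, retinal pigment epithelium and melanocytes, blood, macrophages, endothelium, fibroblasts and glia were below 5 in all 9 ICR arrays. Blood had only 2 such markers, Ahsp and Slc4a1, so little can be said about it, and the other lists had 4 to 11. Of corneal and of muscle markers 1 each reached 5, Tkt (change 0.17, adjusted p = 0.384) and Ckm (0.34, adjusted p = 0.135).

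**Figure D4:**
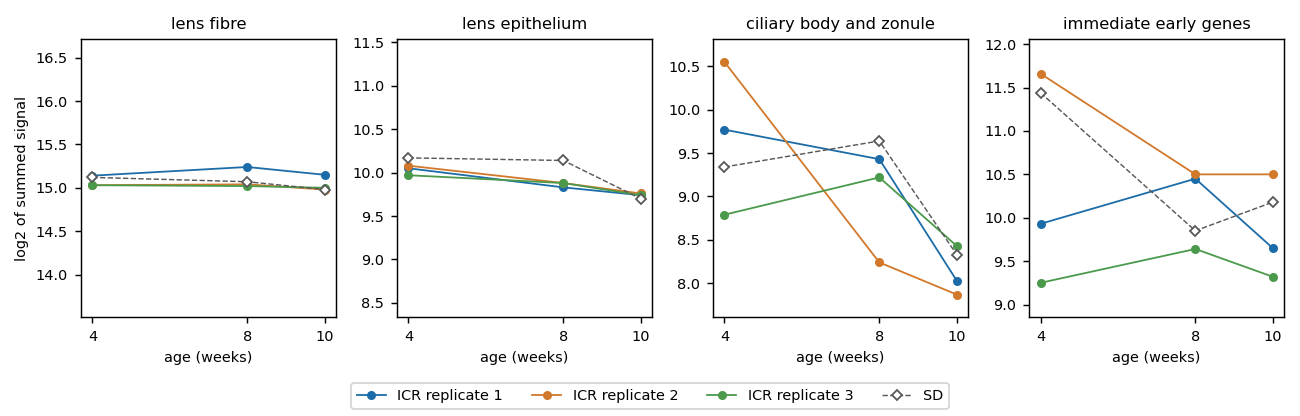
The log2 of the summed signal of 4 gene lists against age in weeks, with lines for the ICR replicate numbers and diamonds for SD, each panel spanning the same 3.2 log2 units. Lens fibre markers overlap between 4 and 10 weeks, lens epithelium markers go from 9.97 to 10.08 down to 9.74 to 9.76, ciliary body and zonule markers are at 8.79 to 10.55 in the 4-week and 7.87 to 8.43 in the 10-week ICR arrays, and immediate early genes are highest in 4-week replicate 2.

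SD lenses showed how far clear lenses of another strain moved over the same ages. With 1 array per age there is no spread within SD, and the strains differ in more than cataract. In SD 26.2% of the tested genes were higher at 10 than at 4 weeks and 73.8% lower, with a median of -0.18. Of the 333 genes that fell in ICR 302 (90.7%) were also lower in SD, where their median difference was -0.45 against -0.64 in ICR. Of the 72 that rose 43 (59.7%) were higher in SD, with a median of 0.09 against 0.64. Among genes outside the study's tables, 252 of 279 falls were lower in SD and 14 of 27 rises were higher. Cryge was at 11.48 and 10.43 in SD and Clic5 at 10.59 and 10.09. Eif2s1 was at 7.52 and 6.90 and Eif2s2 at 7.85 and 6.98, falls of the same order as in ICR. Asns was at 4.61 and 3.47 in SD, both below the detection limit, so that no direction is read from it.

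The difference between strains was tested as an interaction over all 12 arrays, in which the spread comes from ICR alone, and 1 gene (0.0220% of those tested) passed, with 335 at an unadjusted p under 0.05. This was Pdlim1, a PDZ and LIM domain protein that binds alpha-actinin on actin stress fibres. In ICR it was at 7.58, 7.02 and 6.79 at 4 weeks and 7.90, 7.49 and 7.46 at 10 weeks (change 0.49, SE 0.12, adjusted p = 0.0341), and in SD at 6.92 and 5.35. The SD change minus the ICR change was -2.06 on the log2 scale (SE 0.24, adjusted p = 0.0295). The call rests on a single pair of SD arrays, which carry no replicate number and were given a block level of their own, and on the spread within replicate numbers. With no replicate block the SE was 0.49 and the adjusted p 1.0, and the call was also lost with no filter on signal (adjusted p = 0.384) and with all probe sets kept (adjusted p = 0.205). Leaving out any of the 9 ICR arrays other than 4-week replicate 2 raised the adjusted p to 0.0625 to 0.166, while the difference stayed between -2.13 and -1.95. Bhlhe40 was at 5.88 and 5.0 in SD, against a rise in ICR, and Ddit3 at 3.86 and 3.33, both below the detection limit, so that no direction is read from it. Their differences between strains, -1.14 (adjusted p = 0.363) for Ddit3 and -1.42 (adjusted p = 0.363) for Bhlhe40, did not pass.

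**Figure D5:**
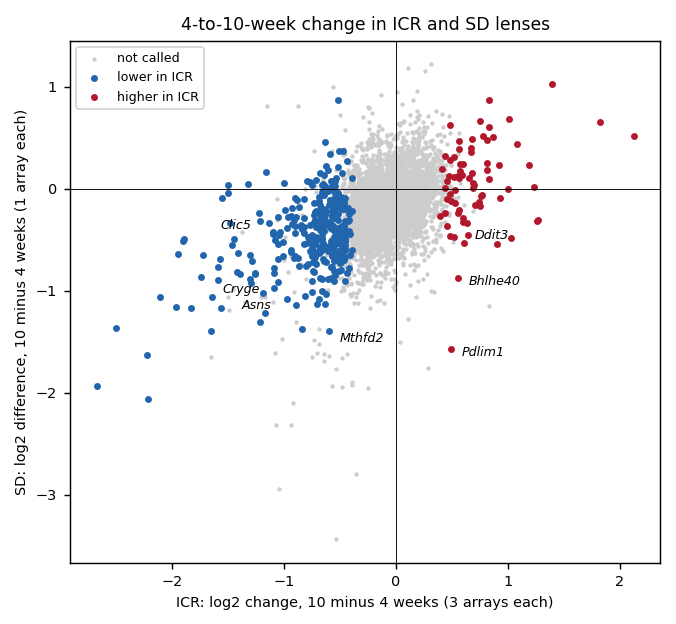
Log2 change from 4 to 10 weeks in ICR (x axis, 3 arrays per age) against the log2 difference in SD (y axis, 1 array per age) for 4546 genes, with called falls in blue and called rises in red. Of the falls 302 of 333 lie below 0 in SD, and Pdlim1, with 0.49 in ICR and -1.57 in SD, lies lowest among the rises.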

How the data were processed

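Whole lenses were taken from culture medium, ground and extracted with TRIZOL, per the labels, and hybridised to rat gene expression arrays. The values are log2 signals, 1 per probe set and array, as the authors deposited them after Robust Multi-array Average normalization. The study's methods name R for this step. Not given in the sources used here is which package did it, whether values were centred and whether the 12 arrays were treated together. Array medians over all probe sets were 2.739 to 2.948. Without a background value per array, the minimum signal of 5 used in the study served as the detection limit, and precision is limited by the number of arrays.

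Of 36685 probe sets, 18511 had 1 gene symbol, 575 had several and 17599 were unlisted. Of 18166 genes, 291 had several probe sets and the one with the highest mean ICR signal was kept. Through RefSeq, 18059 were matched by gene identifier. Linear models (lmFit, then eBayes) were run with limma 3.58.1 under R 4.3.3, two-sided, with Benjamini-Hochberg adjustment over 4546 genes to 0.05, on 9 ICR arrays with age and replicate number. Replicate numbers were used as a block, as set for this comparison. Deviations from the age means correlated at 0.547 to 0.848 in the 9 pairs of arrays of the same number. Other pairs were at -0.750 to 0.508. Such deviations sum to 0 within an age, which lowers the correlations between different numbers. Among arrays of replicates 2 and 3 alone, pairs of the same number were at 0.547 to 0.687 and pairs of different numbers at 0.345 to 0.508. The strain difference was an interaction over 12 arrays with SD as a block level of its own. In simulated data of 4546 genes for the ICR comparison, 47 of 50 genes lowered by 1 and 45 of 50 raised by 1 on the log2 scale were called, as were 19 of 4346 unchanged genes. These data were drawn with the additive replicate effect and independent spread that the model assumes. They therefore cannot show whether the block suits the real arrays.

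The members and the 71 gene lists were chosen with earlier results of these data known. Named genes are the 15 largest called rises and falls outside the study's tables of changed ICR genes (183 names, 159 of them tested), up to 4 genes with the smallest p per list, the 3 strongest markers of a cell type (all where 6 or fewer are measured), and every gene of a count of 5 or fewer. Marker genes without a probe set of a single symbol were not analysed here. Alternatives were other handling of the block, filters, normalizations, probe sets and weights, and leaving out each array. Summed signals are sums on the linear scale, given as log2. Plots were drawn with matplotlib in Python.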

Additional observations from a re-analysis of the deposited data

Results flagged for a closer look

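Pdlim1 was noted because its change from 4 to 10 weeks differed between strains in the interaction test, the SD change minus the ICR change being -2.06 on the log2 scale (SE 0.24, adjusted p = 0.0295). It was higher at 10 weeks within 3 of 3 replicate numbers in ICR and lower in the only pair of SD arrays. Groups of 3 arrays are too small for a check of single outlying values.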

How the results depend on the processing

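Signals near 5 have only a detection limit and no background value, and 3 arrays per age limit what can be called. The 72 rises and 333 falls became 0 and 7 with no replicate block, 44 and 210 with the replicate block as a random effect, 14 and 69 with no filter on signal, 15 and 90 among the same genes with all probe sets kept in the adjustment, 42 and 219 with the arrays of 4 and 10 weeks alone, 140 and 222 with quantile normalization, 136 and 219 with cyclic loess, and 126 and 459 with a variance trend. Leaving out single arrays gave 12 to 69 rises and 69 to 330 falls, and leaving out replicate 1 at all 3 ages gave 5 and 24. The number of genes that differed between strains, 1, became 0 with no replicate block, no filter or all probe sets, 10 with the variance trend, and 0 to 4 without an array. More tests enter the adjustment with no filter and all probe sets, and fewer arrays enter the fits without some, and for the other settings the cause was not tested.

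Among 3 genes that were not called, the sign turned for Akr1b1 (0.07 with quantile normalization, 0.09 with cyclic loess, -0.11 to 0.06 without an array), Cryba1 (0.01 with cyclic loess) and Mip (0.01 with cyclic loess). No called gene named in the text changed sign under an alternative.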
